A study of Homo sapiens with 4 samples.

Results

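The nucleolar ribosome biogenesis factors are 37 protein-coding genes, chosen by gene name from a table of 59384 gene names, whose products build ribosomes inside the nucleolus. All 37 were found in the table. Messenger RNA was sequenced from Daoy, an established human medulloblastoma cell line, after infection with lentivirus. One group received the pLKO control virus and the other a virus with a short hairpin against FABP4 (shFABP4), a cytosolic fatty acid binding protein, and each group held 2 libraries. The question is how transcript levels differ between cells in which FABP4 is targeted and control cells. All 4 libraries thus came from infected cells of the same line, and the hairpin's sequence and the time between infection and harvest are not given in the sources used here.

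In the nucleolus RNA polymerase I copies the ribosomal DNA into a long precursor. Small nucleolar ribonucleoproteins (snoRNPs) of the box C/D and box H/ACA classes then guide methylation and pseudouridylation of that precursor, and large assemblies of processing factors cut and fold it into the small and the large subunit. Genes of this pathway are widely transcribed in growing cells, and many are known targets of MYC, a transcription factor that binds the E-box CACGTG.

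Counted fragments were 8988961 and 13839885 in pLKO 1 and 2, 2539862 in the library labelled shFABP4 1 and 20431660 in shFABP4 2. The library labelled shFABP4 1 stood apart. It was the shallowest, yet it had a fragment in 51762 gene names against 22350 to 25560 in the other 3. It also had fragments in 367 of 380 olfactory receptor genes, which are mostly silent outside the nasal epithelium, against 38 to 68. FABP4 had 14 fragments there (4.71 expected from background), against 1 and 6 in pLKO and 0 in shFABP4 2. These counts are too low to check either the knockdown or the label of that library. Background was estimated from 2656 coding genes that were at 0 in the remaining 3 libraries and amounted to 54.9% of its fragments. Of the markers of the line, VIM was at 1536, 1552, 1114 and 6412 counts scaled to the library total (CPM) in pLKO 1, pLKO 2, the library labelled shFABP4 1 and shFABP4 2, the order used for all values below. CD44 was also abundant, whereas outside the library labelled shFABP4 1 there were 35, 69 and 180 fragments of NES, 17, 23 and 187 of GLI2 and 0, 3 and 3 of ZIC1, a marker of cerebellar progenitors. In the same 3 libraries the epithelial keratins KRT8 and KRT18 were abundant, while EPCAM had 2, 10 and 15 fragments and CDH1 0, 2 and 0. The blood markers PTPRC, CD3E and LYZ had 0 to 5 there and the globin gene HBB 163, 204 and 297. Of the glial markers OLIG2 had 0, GFAP 12, 19 and 165 and MBP 116, 170 and 968. The neuronal markers were at 20, 26 and 196 (SNAP25), 7, 29 and 64 (RBFOX3) and 3, 6 and 48 (SYT1) in the same 3 libraries. The part of other cell types in the results was not tested. No source says whether the 2 libraries of a group were grown as separate cultures, and the p-values below reflect the spread between libraries alone, which may be technical. An exact permutation test of 2 values against 2 cannot reach p = 0.05.

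Together the 37 genes took 0.426% and 0.422% of the fragments of the pLKO libraries, 0.214% of those of the library labelled shFABP4 1 and 0.398% of those of shFABP4 2. Among the 35 genes other than NOP2 and RRS1, the CPM of the pLKO libraries differed by a median of 5.13% and by at most 19.8%. The shFABP4 values lay much farther out, and not all in one direction. In shFABP4 2, PPAN, a factor of large subunit assembly, was at 0.154 times the pLKO mean, while GNL3, a nucleolar GTPase, was at 4.28 times. In bulk libraries, fewer cells that express a gene and less of its RNA per cell cannot be told apart.

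**Figure D1:**
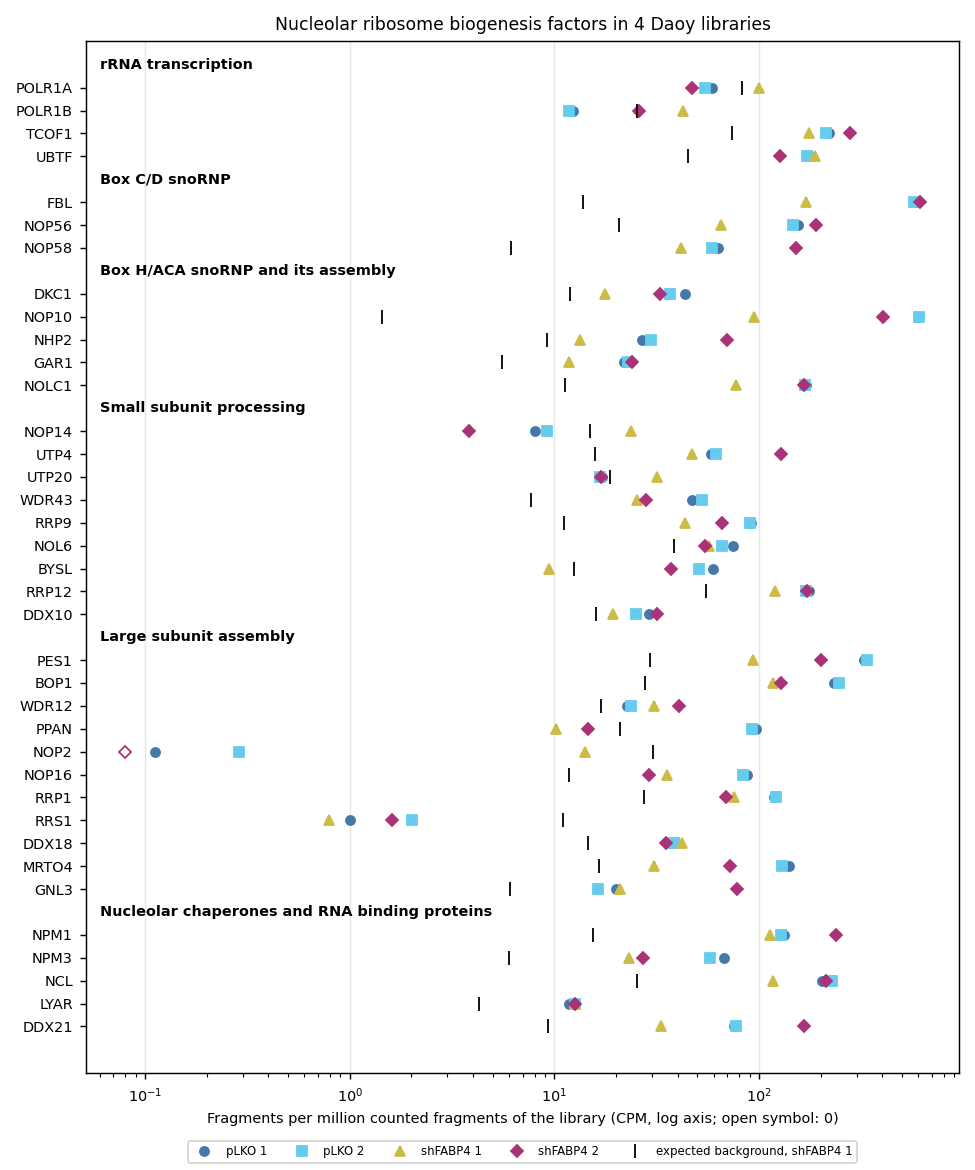
Counts scaled to the library total (CPM, log axis) of the 37 genes, grouped by role, with 1 symbol for each of the 4 libraries and a vertical tick for the background expected in shFABP4 1. The pLKO symbols lie close together for nearly all genes, and the shFABP4 2 symbol ranges from 0.154 (PPAN) to 4.28 times (GNL3) the pLKO mean, apart from NOP2, listed at 0 in shFABP4 2 (open symbol).

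In the library labelled shFABP4 1 much of the signal of these genes was at the level of background. Over all exon bases of a gene, the observed count was 0.0711 to 65.97 times the expected background, with a median of 2.89, and it was below 2 times background for 14 genes. Fragments touching more than 1 gene name were not counted, so this expectation is too high for genes that share exon bases. Over unshared bases alone the count was below background for PPAN (26 against 26.9), BYSL and RRS1 and below 2 times background for 12 genes, those 3 included. NOP10, a small protein of the box H/ACA core encoded by a short and abundant transcript, stood clearest, with 240 fragments where 3.64 were expected over all exon bases, as for the values below unless stated otherwise. FBL, the box C/D methyltransferase, had 432 where 35.0 were expected. In contrast POLR1A, the largest subunit of RNA polymerase I, had 254 where 209 were expected.

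**Figure D2:**
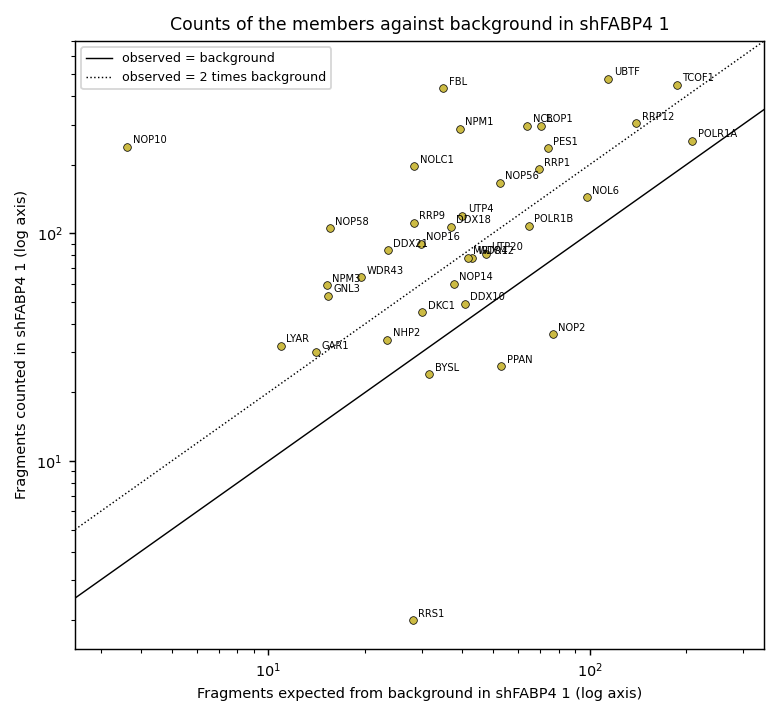
Fragments counted against fragments expected from background in shFABP4 1 (both log axes), 1 point per gene, with lines at equality and at 2 times background. NOP10, FBL and NPM1 lie far above the lines, and 14 genes lie under the dotted line. The expectation is over all exon bases, shared ones included.

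The comparison of shFABP4 with pLKO over all tested genes gave no call. The spread in that fit was wide (coefficient of variation 0.683), so the lack of calls does not show that levels were equal. Of the 37 genes 36 passed the low-count filter, NOP2 being left out, and 0 passed an adjusted p of 0.05 in edgeR's quasi-likelihood test, as did 0 of all 14735 genes tested (0%). At an unadjusted p under 0.05 there were 4 of the 36, all lower in shFABP4, against 12.3% of all genes: PPAN, NOP16, NPM3 and WDR43 (the last of these and NOP16 are named for this count, after their values were seen). DESeq2 called 1 of the 36, PPAN, lower (adjusted p = 0.00397), with 4.88% of all genes called, and limma-voom called 0, with 4 at an unadjusted p under 0.05 (9.49% of all genes). The fitted log2 fold changes ran from -3.44 to 1.07 with adjusted p from 0.391 to 0.991 (edgeR). Their median was -0.77, where the median of all tested genes was 0.34.

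Whether the group as a whole lay low or high turned with the scaling. With TMM factors over all tested genes, which count the background as expression, both shFABP4 libraries lay below both pLKO libraries for 23 of the 36 genes (26.1% of all tested genes) and above for 1 (28.5%). With library totals over the tested genes only and no further factors (total-count scaling), 13 lay below (13% of all tested genes) and 7 above (48%). The median log2 fold change was then -0.08 against 1.30 for all genes. These totals differ from those of the CPM, which divide by all counted fragments. When the libraries were scaled by abundant genes only, 4 lay below (4.13%) and 19 above (63.6%). The abundant genes are the 1022 coding genes whose RNA in the library labelled shFABP4 1, predicted from the pLKO libraries alone, should be at least 5 times its background. With the expected background also subtracted on that scale, 5 lay below (13.5%) and 17 above (43%). The genes below under all 4 scalings were PPAN, NOP10, MRTO4 and BYSL, and POLR1B lay above under all 4.

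**Figure D3:**
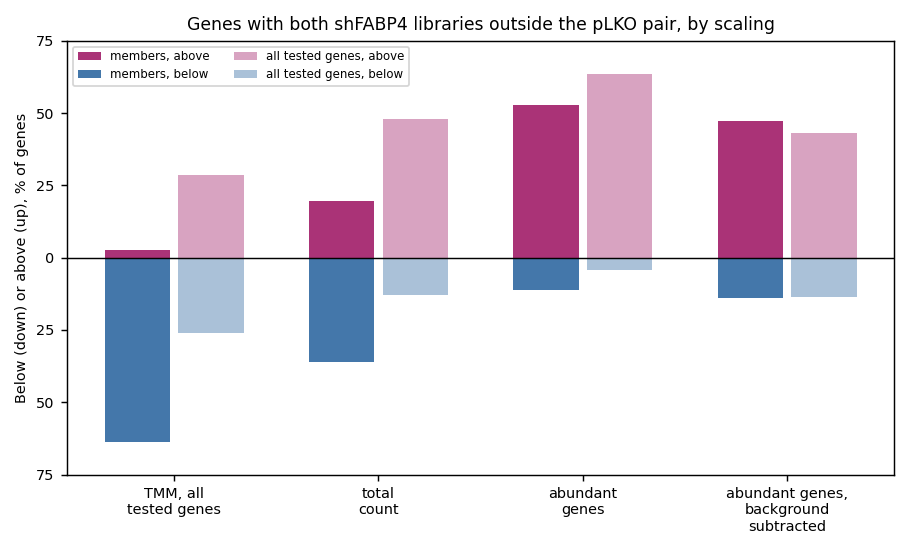
Percent of genes with both shFABP4 libraries above (bars up) or below (bars down) both pLKO libraries, for the 36 tested factors (dark) and all 14735 tested genes (light), under 4 scalings. The dark bars go from 23 genes below and 1 above with TMM over all tested genes to 4 below and 19 above when scaled by abundant genes.

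Only 4 of the 37 genes belonged to the abundant genes, and none of them passed there. In log2 fold change FBL was at 0.26 (SE 0.13), NOLC1 at 0.54 (SE 0.24), PES1 at -0.16 (SE 0.23) and NOP10 at -0.50 (SE 0.19). The adjusted p were 0.211, 0.180, 0.623 and 0.136 (edgeR). Among all 1022 abundant genes 21.6% were called. DESeq2 and limma-voom also called 0 of the 4, with 35.8% and 34.8% of abundant genes called. By each of edgeR, DESeq2 and limma-voom 0 of the 4 reached an unadjusted p under 0.05, which 42.4%, 44.5% and 52.2% of abundant genes did. Their median of 0.05 stood beside -0.05 for all abundant genes. With the bar lowered to 2 times background the set held 2095 genes and 17 of the 37. Both shFABP4 libraries then lay below for 5 of the 17 (33.6% of the set) and above for 6 (32.7%). In that set edgeR called 0 of the 17 and 0 of all genes (0%), with 4 of the 17 at an unadjusted p under 0.05 (33.4% of the set). The smallest adjusted p among them belonged to PPAN (log2 fold change -2.10, SE 0.302, adjusted p = 0.0511) and NPM1 (1.23, SE 0.186, adjusted p = 0.0515, edgeR). Where the set was instead predicted from 3 libraries, shFABP4 2 included, 2 of 5 were called higher, NOP58 (1.35, adjusted p = 0.0118) and DDX21 (0.99, adjusted p = 0.0445, edgeR), against 19% of that set. Neither is abundant by its pLKO levels, so their high value in shFABP4 2 put them in that set.

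Genes for transcription of ribosomal DNA differed among themselves. POLR1B, the second-largest subunit of RNA polymerase I, had 111, 164, 108 and 530 fragments, or 12.3, 11.8, 42.5 and 25.9 CPM. Both shFABP4 libraries were above both pLKO libraries, but 64.6 of the 108 fragments of the library labelled shFABP4 1 were expected from background. The fitted log2 difference was 0.81 (SE 0.43; edgeR, adjusted p = 0.410). POLR1A had 528, 753, 254 and 963 fragments, and in CPM shFABP4 2 was at 0.833 times the pLKO mean. UBTF, which opens and activates ribosomal DNA, had 1591, 2374, 476 and 2578 fragments, or 177, 172, 187 and 126 CPM. Only shFABP4 2 was low in CPM, and the log2 fold change over all tested genes was -0.82 (SE 0.60, adjusted p = 0.493, edgeR). TCOF1, treacle, which binds UBTF and RNA polymerase I, was at 219, 212, 176 and 277 CPM.

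Of the box C/D core, NOP58 differed most. It had 566, 819, 105 and 3100 fragments, or 63.0, 59.2, 41.3 and 152 CPM. In CPM the library labelled shFABP4 1 lay below both pLKO libraries and shFABP4 2 above both. Scaled by abundant genes, both lay above, at 249 and 287 against 99.1 and 93.3, or 212 in the library labelled shFABP4 1 with background subtracted. FBL had 5237, 7942, 432 and 12454 fragments, which on that scale gave 917, 904, 1024 and 1153, a small excess in both. NOP56, the partner of NOP58 in the same particle, was at 245, 230, 393 and 357 on that scale, or 269 with background subtracted in the library labelled shFABP4 1. Over all tested genes the log2 fold changes were 0.28 (SE 0.98) for NOP58, -0.95 (SE 1.17) for FBL and -0.66 (SE 0.95) for NOP56, with adjusted p of 0.891, 0.672 and 0.721 (edgeR).

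The box H/ACA genes pointed both ways. NOP10 (chr15:34341719-34343136, GRCh38, minus strand) had the highest level per length of the 37, at 1180 and 1192 CPM per kb of exon in pLKO against 272 and 268 for FBL. It had 5378, 8362, 240 and 8206 fragments, or 598, 604, 94.5 and 402 CPM. Both shFABP4 libraries were low, and they stayed low when scaled by abundant genes (941, 952, 569 and 760). NHP2, which binds beside NOP10 in the same particle, had 240, 411, 34 and 1419 fragments, or 26.7, 29.7, 13.4 and 69.5 CPM. Here shFABP4 2 was 2.46 times the pLKO mean, while the 34 fragments of the library labelled shFABP4 1 compare with 23.5 expected from background, or 16.7 over the unshared bases, since 28.9% of NHP2's exon bases also belong to RMND5B. DKC1, the pseudouridine synthase, was at 43.3, 36.8, 17.7 and 32.9 CPM and GAR1 at 21.9, 23.0, 11.8 and 23.9. NOLC1, a chaperone of snoRNPs, was at 171, 167, 77.6 and 166 CPM, so that shFABP4 2 was at 0.982 times the pLKO mean and the library labelled shFABP4 1 was lower. Over all tested genes the log2 fold changes were -1.64 (SE 1.23) for NOP10, 0.21 (SE 1.08) for NHP2 and -0.93 (SE 0.86) for NOLC1, with adjusted p of 0.502, 0.926 and 0.572 (edgeR).

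For small subunit processing 9 genes were measured. With TMM over all tested genes 6 lay below pLKO in both shFABP4 libraries (26.1% of all tested genes). When scaled by abundant genes 1 did so (4.13%). BYSL, an adaptor of late small subunit maturation, was that gene, with 536, 706, 24 and 756 fragments. In CPM it was at 59.6 and 51.0 in pLKO and at 9.45 in the library labelled shFABP4 1, with shFABP4 2 at 0.669 times the pLKO mean, so that both shFABP4 libraries were low, and its 24 fragments did not reach the 31.7 expected from background. The fitted log2 difference was -1.61 (SE 0.996; edgeR, adjusted p = 0.446). UTP4, which joins the precursor while it is still being transcribed, had 522, 851, 119 and 2614 fragments, or 58.1, 61.5, 46.9 and 128 CPM. It was high only in shFABP4 2 by CPM, with a fitted log2 difference of 0.13 (SE 0.87; edgeR, adjusted p = 0.945). WDR43, a factor of the same early complex as UTP4, was at 46.9, 52.5, 25.2 and 27.9 CPM, low in both shFABP4 libraries by CPM. Scaled by abundant genes, WDR43 in the library labelled shFABP4 1 lay above pLKO (152, or 106 with background subtracted, against 73.9 and 82.7). The U3 snoRNP protein RRP9 was at 91.2, 90.8, 43.7 and 65.7 CPM. The others in shFABP4 2 were at 0.444 (NOP14), 0.774 (NOL6), 0.995 (RRP12), 1.01 (UTP20) and 1.17 (DDX10) times the pLKO mean. NOP14 had only 72, 127, 60 and 78 fragments, and 37.7 of the 60 were expected from background, or 29.9 over unshared bases.

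Large subunit assembly held the most extreme values at both ends. PPAN (chr19:10106362-10112012, GRCh38, plus strand) had 872, 1284, 26 and 299 fragments, or 97.0, 92.8, 10.2 and 14.6 CPM. Both shFABP4 libraries lay far below both pLKO libraries under every scaling run, with 153, 146, 61.6 and 27.7 when scaled by abundant genes. Its log2 fold change was -3.44 (SE 0.68, unadjusted p = 0.00622, adjusted p = 0.391, edgeR). PPAN is counted on part of its exons only: 49.2% of its exon bases also belong to the gene P2RY11, which follows it, or to the readthrough PPAN-P2RY11, and fragments there were left out of the count. Over the unshared bases 26.9 fragments are expected from background in the library labelled shFABP4 1, against 26 counted, so that the value there is at background. The low PPAN level above background thus rests on shFABP4 2. P2RY11, a purinergic receptor, was at 23.7, 21.7, 4.33 and 18.5 CPM, and PPAN-P2RY11 had 0 or 1 fragment in each library.

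GNL3, known as nucleostemin, had 179, 226, 53 and 1586 fragments, or 19.9, 16.3, 20.9 and 77.6 CPM. In CPM both shFABP4 libraries were above both pLKO libraries, the library labelled shFABP4 1 only just, and 15.3 of its 53 fragments were expected from background. Its fitted log2 difference was 1.07 (SE 0.97; edgeR, adjusted p = 0.567). MRTO4, which helps form the ribosomal stalk, had 1264, 1801, 78 and 1474 fragments, or 141, 130, 30.7 and 72.1 CPM, low in both shFABP4 libraries. NOP16 was at 87.8, 83.7, 35.4 and 28.9 CPM and RRP1 at 119, 121, 75.2 and 68.7, also low in both by CPM. Scaled by abundant genes, the library labelled shFABP4 1 lay above pLKO for both genes, also with background subtracted. NOP16 was there at 213 (143 subtracted) against 138 and 132, and RRP1 at 453 (288 subtracted) against 187 and 190. In shFABP4 2 they stayed below pLKO on that scale, at 54.7 and 130. DDX18, a helicase, was at 36.8, 38.6, 42.1 and 35.1 CPM, with the library labelled shFABP4 1 above and shFABP4 2 below pLKO.

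PES1, BOP1 and WDR12 form the PeBoW complex, which is needed to process the large subunit precursor. PES1 had 2928, 4654, 236 and 4118 fragments, or 326, 336, 92.9 and 202 CPM. BOP1 had 2093, 3392, 297 and 2604 fragments, or 233, 245, 117 and 127 CPM. WDR12 had 203, 329, 78 and 830 fragments, or 22.6, 23.8, 30.7 and 40.6 CPM. In CPM PES1 and BOP1 were thus low and WDR12 high in both shFABP4 libraries, although 43.0 of the 78 WDR12 fragments in the library labelled shFABP4 1 were expected from background. Scaled by abundant genes, BOP1 in that library lay above pLKO (704, or 537 with background subtracted, against 366 and 386). PES1 was there at 559, or 384 with background subtracted, against 512 and 530. NOP2, an RNA methyltransferase, could hardly be measured, with 1, 4, 36 and 0 fragments. Of its exon bases 54.4% also belong to RP5-940J5.10, listed at 0 in all 4 libraries, and 35.0 background fragments are expected over the unshared bases in the library labelled shFABP4 1. RRS1 had 9, 28, 2 and 33 fragments.

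Of the nucleolar chaperones and RNA binding proteins, the related genes NPM1 and NPM3 went apart. NPM1, nucleophosmin, had 1189, 1766, 288 and 4875 fragments, or 132, 128, 113 and 239 CPM. NPM3 had 609, 796, 59 and 555 fragments, or 67.7, 57.5, 23.2 and 27.2 CPM. NPM3 was low in both shFABP4 libraries by CPM (log2 fold change -1.87, SE 0.57, unadjusted p = 0.0282, adjusted p = 0.391, edgeR), and scaled by abundant genes the library labelled shFABP4 1 lay above pLKO (140 against 107 and 90.6) without, and between the pLKO libraries (104) with, subtraction of background. For NPM1, 49 pseudogene names held 25, 38, 226 and 102 fragments of their own. DDX21, a helicase that acts at ribosomal DNA and on snoRNAs, had 675, 1068, 84 and 3384 fragments, or 75.1, 77.2, 33.1 and 166 CPM. In CPM the library labelled shFABP4 1 lay below pLKO and shFABP4 2 above, and both lay above when scaled by abundant genes (118, 122, 199 and 313), and the log2 fold change over all tested genes was 0.04 (SE 1.10, adjusted p = 0.988, edgeR). NCL, nucleolin, was at 203, 227, 117 and 212 CPM and LYAR at 11.8, 12.6, 12.6 and 12.7.

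Ratios of counts between partners in the same library need no scaling. For 14 pairs within 5 complexes or families, formed after the values had been seen and therefore not tested, the gene of lower GC content was divided by the other. In shFABP4 2 the ratio lay above both pLKO ratios in 10 pairs and below in 4. It lay above in both shFABP4 libraries, with and without subtraction of background from the library labelled shFABP4 1, in 9 pairs, and below in all of these in 0. The pairs share genes, so they are not separate observations, and no share over other gene pairs was computed. Over 10274 coding genes the log2 ratio of shFABP4 2 to pLKO fell with GC content (correlation -0.323). Dividing by the gene of higher GC content thus itself tilts ratios upward in shFABP4 2. In shFABP4 2 the ratio that moved most from the pLKO mean was NPM1 over NPM3, at 1.95 and 2.22 in pLKO, 4.88 in the library labelled shFABP4 1 (5.67 with background subtracted) and 8.78 in shFABP4 2. NOP58 over FBL was at 0.108, 0.103, 0.243 (0.225 subtracted) and 0.249, so that both shFABP4 libraries held more NOP58 per FBL fragment. WDR12 over PES1 was at 0.0693, 0.0707, 0.331 (0.216 subtracted) and 0.202. POLR1B over POLR1A was at 0.210, 0.218, 0.425 (0.960 subtracted) and 0.550. NOP10 over NHP2 gave 22.4, 20.3, 7.06 and 5.78, but 22.4 in the library labelled shFABP4 1 once background was subtracted. That subtraction takes 23.5 of NHP2's 34 fragments, where only 16.7 are expected over its unshared bases, so it is too large. It therefore does not settle whether that library shares the shift seen in shFABP4 2.

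**Figure D4:**
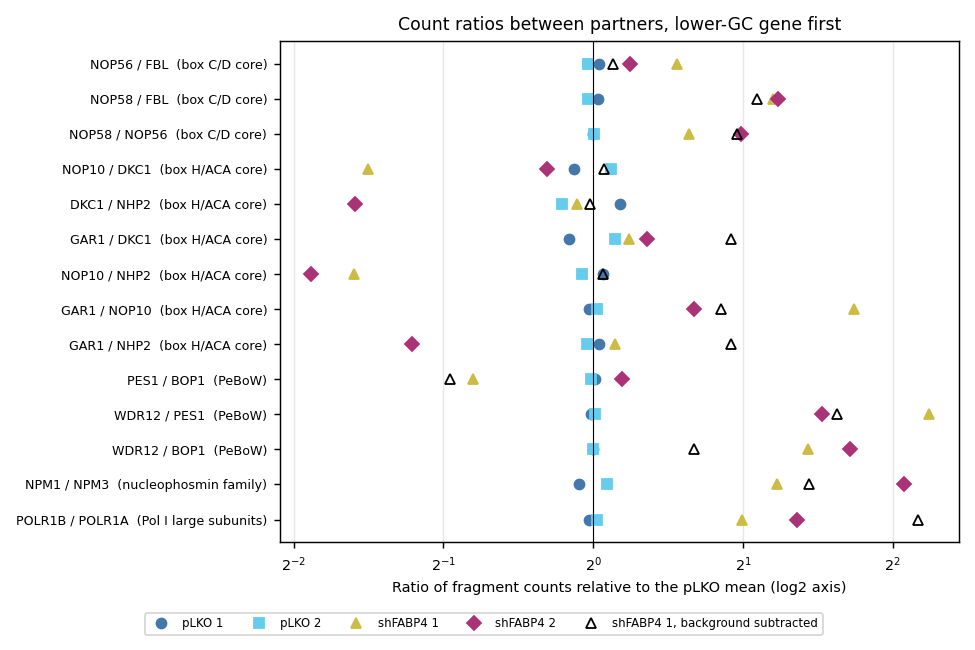
Ratio of fragment counts between partners of 5 complexes or families in each library, divided by the mean pLKO ratio (log2 axis), with the gene of lower GC content first and open triangles for shFABP4 1 after background subtraction. In 9 of 14 pairs every shFABP4 symbol lies to the right of both pLKO symbols. The pairs share genes, and no share over other gene pairs was computed.

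The side on which a gene lay in shFABP4 2 went along with its GC content. Over 36 of the genes the correlation of GC content with the log2 ratio of shFABP4 2 to pLKO was -0.549, and over 10274 coding genes it was -0.323 (across genes of the same 3 libraries, as a description). By CPM 8 of the 37 genes were more than 1.5-fold higher in shFABP4 2 (36.9% of coding genes with at least 20 fragments on average in pLKO): GNL3, NOP58, NHP2, DDX21, POLR1B, UTP4, NPM1 and WDR12. Their median GC content was 42.8%. The 9 that were more than 1.5-fold lower (21.7% of coding genes) were PPAN, NOP16, NPM3, NOP14, BOP1, MRTO4, WDR43, RRP1 and PES1. The median GC content of these 9 was 56.2%. NOP2 was listed at 0, which allows 0.147 CPM in shFABP4 2, against 0.111 and 0.289 in pLKO, so a fall is not shown. NOP2 and RRS1 do not reach the 20 fragments on average that the 36.9% and 21.7% require. NOP10 at 0.668 times and BYSL at 0.669 times lay just outside. These values come from 1 library and have no replicate check. The part of GC content in the result was not tested beyond a fitted correction.

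**Figure D5:**
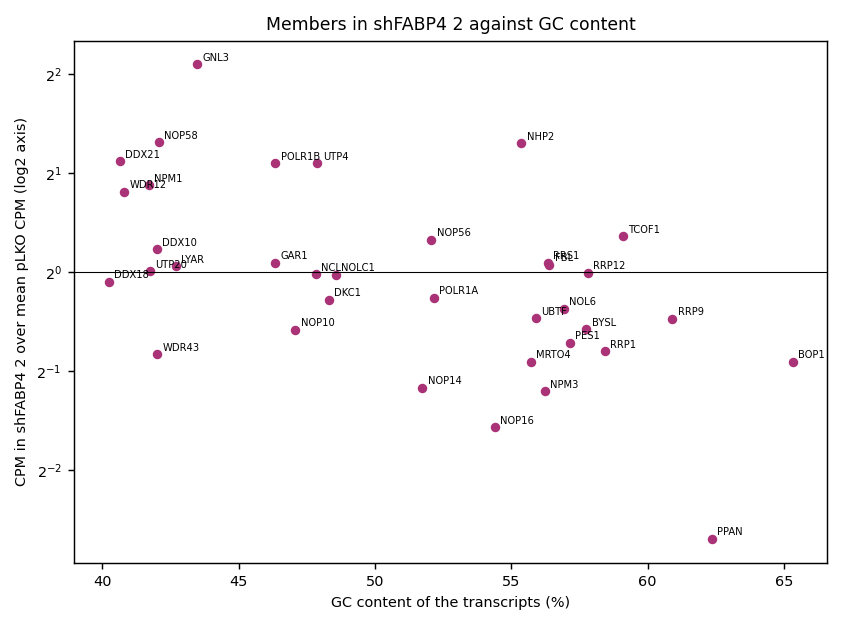
Ratio of CPM in shFABP4 2 to the mean pLKO CPM (log2 axis) against the GC content of the gene's transcripts, for the 36 genes with a fragment in shFABP4 2. Genes under 45% GC lie mostly at or above 1 and those over 55% mostly below, with NHP2 (2.46 times) high and WDR43 (0.562 times) low for their GC content.

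With the library labelled shFABP4 1 left out, edgeR called 30 of the 36 genes (66.9% of all genes tested), 9 of them higher (34.2%) and 21 lower (32.7%). The spread then came from the pLKO pair alone, with a coefficient of variation of 0.0434, and the fit takes that spread for shFABP4 2 as well. After correction for GC content and length 10 were called higher (33.5%) and 23 lower (34%). PPAN went from -2.94 to -2.46 with that correction, GNL3 from 1.88 to 1.61 and NHP2 from 1.04 to 1.33. NPM1 went from 0.63 to 0.20 and WDR12 from 0.56 to 0.11, which was no longer called (adjusted p = 0.408, edgeR). FBL turned from -0.17 to 0.14.

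Of 110 other genes of the pathway, 108 were tested over all genes and 0 were called (edgeR, 0% of all tested genes). At an unadjusted p under 0.05 there were 12 (12.3% of all tested genes, edgeR). With TMM over all tested genes 46 of the 108 lay below pLKO in both shFABP4 libraries (26.1% of all tested genes) and 17 above (28.5%). Their median log2 fold change was -0.34, beside -0.77 for the 36 and 0.34 for all tested genes. The median was -0.19 for 12 genes of the RNA polymerase I machinery, -0.35 for the small subunit processome, -0.39 for large subunit assembly, -0.65 for the nuclear exosome and -0.75 for snoRNP assembly. Among the abundant genes, 3 of 12 were called higher (10.1% of abundant genes) and 1 lower (11.5%), all of them factors of large subunit assembly. NSA2 had 983, 1421, 133 and 3542 fragments (log2 fold change 0.95, SE 0.12, adjusted p = 0.0270, edgeR). EBNA1BP2 had 1161, 1782, 174 and 3808 (0.91, SE 0.14, adjusted p = 0.0325) and NOP53 had 4225, 6719, 518 and 16730 (0.89, SE 0.17, adjusted p = 0.0435, edgeR). EIF6, which keeps the large subunit from joining the small one too early, was the gene that fell, with 6014, 9457, 262 and 5504 fragments (-0.92, SE 0.15, adjusted p = 0.0344, edgeR). With either pLKO library left out none of the 12 passed, and scaled by all fragments none did.

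The starts of these genes were searched for the E-box CACGTG, which reads the same on both strands. RefSeq promoter entries (GRCh38.p14) matched 30 of the 37 genes with 38 entries, and the 250 bases before the start held CACGTG in 13.2% of them (DDX21, LYAR, NOP10, UTP20 and UTP4), against 6.34% of all 35116 entries and 11.2% of 107 entries of the other pathway genes. Both genes shown were low in both shFABP4 libraries under every scaling run, although PPAN was at background in the library labelled shFABP4 1. The 2 genes differ in this motif, which NOP10 holds 2 times and PPAN does not hold. The stretches hold no exon bases of the count table, and capitals mark CACGTG. That of NOP10 (chr15:34343137-34343314, minus strand) ends at the start of the gene. That of PPAN (chr19:10105973-10106222, plus strand) ends at the upstream one of its 2 RefSeq starts, 139 bases before the start in the count table. The window of its other entry, which is not shown, does not hold the motif either.
NOP10: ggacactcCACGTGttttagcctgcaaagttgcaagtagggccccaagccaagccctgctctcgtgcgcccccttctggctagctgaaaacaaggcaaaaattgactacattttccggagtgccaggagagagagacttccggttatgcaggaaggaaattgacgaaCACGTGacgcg
PPAN: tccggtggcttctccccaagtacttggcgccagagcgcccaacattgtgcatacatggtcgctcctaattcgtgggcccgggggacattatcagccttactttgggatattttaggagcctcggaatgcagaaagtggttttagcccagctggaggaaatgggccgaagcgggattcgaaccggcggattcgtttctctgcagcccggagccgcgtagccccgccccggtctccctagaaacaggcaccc
Of the genes with the motif, NOP10 was low, DDX21 and UTP4 were high and LYAR and UTP20 were near 1 in shFABP4 2 by CPM (0.668, 2.18, 2.14, 1.04 and 1.01 times the pLKO mean).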

How the data were processed

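The deposited table holds raw fragment counts by gene name for 4 libraries, which the authors made with featureCounts v2.0.0 over exons of GENCODE 38, per the file headers, with no strand option, with chimeric fragments left out and without an option to count fragments that touch several genes. Overlapping or antisense genes and near-identical copies are therefore uncertain. The submitters' processing notes name GRCh38 as the build and HISAT, StringTie and FastQC as tools, with no version. Per the labels' protocols mRNA was bead-enriched and fragmented with Tn5. The row of ANK2 was broken over 7 lines and left out, and the 37 mitochondrial names were at 0.

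The members and the lists were chosen with earlier results of these data known. Genes were tested with edgeR 4.0.16 (robust two-sided quasi-likelihood F test, TMM, filterByExpr with minimum count 10 and minimum total 15) in R 4.3.3, with Benjamini-Hochberg adjustment over all genes of each fit at 0.05. DESeq2 1.42.0 and limma-voom (3.58.1) were alternatives, as were other scalings, filters, sets, GC and length correction (splines, 4 degrees of freedom), each library left out and the replicate number as a block. CPM divide each count by the total of its library. Background in the library labelled shFABP4 1 was the rate per kb of exon of silent coding genes in 6 bins of GC content, from 3.44 to 18.4 fragments per kb. GC content came from GENCODE 29, for all 37 genes. The test was checked on simulated data, where the fit over all tested genes recovered none of the changes put in. Depth ranged from 2539862 to 20431660 fragments, and over 13291 genes the pLKO pair had a chi-square of 2.16 per degree of freedom, above sampling noise, and was kept as 2 libraries.

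Full values were to be given for abundant members and for those with the smallest and largest fold change in each role; further members are named after their values were seen.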

Additional observations from a re-analysis of the deposited data

How the results depend on the processing

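The count of 0 called members over all tested genes held under RLE, upper-quartile and total-count scaling, without the low-count filter, in limma-voom and with the replicate number as a block (0 members). It became 1 in DESeq2, ran from 0 to 37 with each library left out (37 without shFABP4 2, where 85.9% of all genes were called), and was 33 without shFABP4 replicate 1 and with GC and length correction. The median of the members ran from -3.13 to -0.27 with a library left out. The count of members with every remaining shFABP4 library outside pLKO ran from 25 to 37. It was 25 of 37 without pLKO 1 (11726 of all 28425 genes tested) and 25 of 37 without pLKO 2 (11807 of 28115). It was 34 of 36 without shFABP4 1 (14022 of 15301) and 37 of 37 without shFABP4 2 (27127 of 27830). With 1 library in a group most genes can lie outside without any shift, so these counts do not set the members apart. The correlation of deviations between the libraries numbered 1 was 0.01. The background of the library labelled shFABP4 1 enters that value, so it does not show whether libraries with the same number share a batch. With the block, 6 pathway genes in place of 4 were called among the abundant genes. There the members called ran from 0 to 4 with a library left out (4 without shFABP4 1 and 3 without shFABP4 2, where 91.6% and 74.3% of abundant genes were called) and were 2 in the set from 3 libraries, and the pathway genes called ran from 0 to 11. Pathway calls numbered 2 with total-count scaling, 2 with GC and length correction, 0 at 2 times background (0% of that set), 1 at 10 times and 0 when scaled by all fragments. The other pathway counts here have no share of all genes of the same fit beside them. A move of the pathway and a move of the whole fit can therefore not be told apart. The members' median there moved to 0.12 with RLE and to 0.12 with upper-quartile scaling, 0.0003 at 10 times background, 0.41 in the set from 3 libraries, 0.14 with GC and length correction, 0.094 with background by length only subtracted and -0.87 when scaled by all fragments, and ran from 0.0448 to 0.13 with a library left out.

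Single genes turned as follows, and the cause was not tested. Scaled by all fragments FBL was at -0.57, NOLC1 at -0.47 and EBNA1BP2 at -0.0137. PES1 among abundant genes was at 0.0373 with GC and length correction and ran from -0.37 to 0.10 with a library left out. FBL over all tested genes was at 0.14 without shFABP4 replicate 1 and with that correction. With the block NHP2 was at -0.50, NOP58 at -0.26, DDX21 at -0.67 and UTP4 at -0.26, and in limma-voom at -0.64, -0.76, -1.23 and -0.67. DDX21 was at -0.0344 with RLE and -0.0354 in DESeq2, and UBTF at 0.16 with total-count scaling. With a library left out NHP2 ran from -3.33 to 1.04, NOP58 from -2.81 to 1.07, DDX21 from -3.45 to 0.87, UTP4 from -2.60 to 0.85, GNL3 from -2.02 to 1.88 and POLR1B from -0.43 to 0.86. Of 312 values for single genes under an alternative 24 turned, 22 lost the call, 43 gained one and 223 stayed. The depth and background of the library labelled shFABP4 1 set a limit: 12 of the 37 genes were under 2 times background over unshared bases there, or 14 over all exon bases.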

Other observations

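Of the 37 genes 7 carry small nucleolar RNAs (snoRNAs) within their transcripts, 22 in all by position and strand: NOP56, NOP58, GNL3, WDR43, DKC1, NCL and PPAN. SNORA75, which shares exon bases with NCL, is not among these. The snoRNA names themselves held 0 fragments in both pLKO libraries and in shFABP4 2 and 9 in the library labelled shFABP4 1, and 17 of the 22 were at 0 in all 4 libraries. Fragments touching more than 1 gene name were not counted, and several of these snoRNAs share exon bases with their hosts. For NOP56 these include SNORA51, SNORD86 and SNORD110. The counts of 0 therefore do not show whether snoRNA fragments were present. Pseudogenes of other members were counted too: 2 NCL pseudogene names held 3, 1, 90 and 1 fragments, 2 of PES1 held 0, 1, 64 and 0, and 5 of DDX18 held 0, 0, 55 and 1. Most of these fragments were in the library labelled shFABP4 1.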
